A study of Mus musculus with 5 samples.

Results

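Agonist anti-CD40 was compared with itself under a different checkpoint partner, anti-CTLA-4 in one group of tumour-bearing mice and anti-PD-1 in the other. These are the libraries titled CD40plusCTLA4 and PD1plusCD40, 2 of the 5 single-cell libraries of the series, called CD40+CTLA4 and PD1+CD40 below. The tumours came from Renca, a mouse renal cortical adenocarcinoma cell line placed subcutaneously in Balb/c mice, with the genotype labelled WT. From day 10 each mouse received 2 intraperitoneal doses of its antibodies, 200 µg of each: clone FGK4.5/FGK45 against CD40 in both groups, clone 9H10 against CTLA-4 in the first and clone RMP1-14 against PD-1 in the second. Tumours of 3 mice per group were taken 24 hours after the second dose, dissociated for 30 minutes with collagenase and DNase, sorted into CD45+CD3+, CD45+CD3- and CD45-CD3- cells and mixed 2:1:1 with equal contributions of the mice. The mice of a group share 1 library, so no difference below has a replicate check and no test was made. The other libraries, PBS, PD1+CTLA4 and a Triplet of all 3 antibodies, enter only as levels beside the pair.

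CD40 is a receptor of the tumour necrosis factor receptor family on dendritic cells, macrophages and B cells. When its ligand on activated helper T cells engages it, these cells raise costimulatory molecules and interleukin-12, which license them to prime T cells. PD-1 and CTLA-4 are both inhibitory receptors of T cells, but they act at different points: CTLA-4, abundant on regulatory T cells, competes with CD28 for CD80 and CD86 during priming, whereas PD-1 restrains effector cells that meet its ligands in the tissue. Interferon-gamma from T and NK cells acts through JAK kinases on macrophages and tumour cells, where it induces Cxcl9, guanylate-binding proteins and antigen presentation.

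Barcodes with at least 500 unique molecular identifiers (UMIs), at least 300 genes and at most 10% of UMIs on mitochondrial genes were kept, 16389 in CD40+CTLA4 and 16884 in PD1+CD40, from 10000 loaded cells each. The libraries held 95867828 and 73974407 UMIs, with a median of 1827 and 1422 per kept barcode. Clusters left unnamed under the naming limits held 61.3% and 65.3% of kept barcodes, with medians of 1364 and 1118.5 UMIs, and stayed out of the comparison. The unnamed clusters 0, 1, 2 and 9 scored highest for phagocyte markers but were too shallow to be named at their scores. Their medians over the 5 libraries were 892, 1486, 1369 and 1404.5 UMIs. Cluster 2, with Acp5, Ctsk and Mmp9 among its leading genes, held 3221 and 1814 barcodes of the pair. The 7 classes with at least 50 cells on each side held 5249 and 4738 cells. The kept sets shared 69 barcodes, and both files carry Cell Ranger 7.1.0 headers. The CD40+CTLA4 file, which lists barcodes from 0 UMIs upward, lists 97.26% of the kept PD1+CD40 barcodes. It also lists 97.65% of those of PD1+CTLA4, 99.73% of those of the Triplet and 3.86% of those of PBS. Whether reads passed between libraries was not tested. In each class UMIs were summed and scaled by the class total to CPM, the usual depth-normalised count. A gene was measured with at least 20 UMIs over both libraries. It is called past the fold where CPM + 5 differed by at least 1.5-fold and the exact 95% interval of the ratio left out 1; ratios are CD40+CTLA4 over PD1+CD40, and all intervals cover counting error only. In classes with few cells, counting error alone carries some genes past this limit, so each count is read beside the share of all measured genes past it.

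The antibody target genes were present where they are known to act. In all T cells Ctla4 stood at 262 CPM (239 to 288) in CD40+CTLA4 and 487 CPM (455 to 522) in PD1+CD40, and Pdcd1, which encodes PD-1, at 168 and 174 CPM. The lower Ctla4 level of T cells as a whole went with fewer Treg-like cells among them, described further down. Cd40 was highest in mature dendritic-like cells, at 573 CPM (535 to 614) against 422 CPM (389 to 457), a ratio of 1.36 (1.22 to 1.51). In monocyte/macrophage-like cells it stood at 46.8 and 33.5 CPM, a ratio of 1.40 (1.31 to 1.49). Neither Cd40 difference reached the fold limit, and both were higher in CD40+CTLA4.

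Macrophages of the CD40+CTLA4 tumours carried more RNA of listed interferon-gamma response genes and of osteoclast genes than those of PD1+CD40. Monocyte/macrophage-like cells formed the largest class, with 4116 and 3540 cells and medians of 12693.5 and 11493 UMIs. Of 14659 measured genes, 69 were past the fold higher in CD40+CTLA4, or 0.471%, and 21 were past it lower, or 0.143%. The median log2 ratio of all measured genes was 0.00. Of 31 measured interferon-gamma response genes, 13 were past the fold higher, none lower, and 29 lay above 0, with a median log2 ratio of 0.54. Of 13 osteoclast genes, 7 were past it higher and 13 lay above 0, with a median of 0.61.

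Cxcl9, a chemokine that draws CXCR3-bearing T cells, stood at 195 CPM (192 to 199) in CD40+CTLA4 and 76.9 CPM (74.3 to 79.5) in PD1+CD40, a ratio of 2.54 (2.44 to 2.64). Iigp1, an interferon-inducible GTPase that attacks the vacuoles of intracellular microbes, stood at 66.4 and 30.2 CPM, a ratio of 2.20 (2.07 to 2.34). The guanylate-binding proteins, GTPases of the same defence, followed: Gbp2b was at 50.02 against 23.2 CPM, a ratio of 2.15 (2.00 to 2.32), and Gbp4 at 28.2 against 11.6 CPM, a ratio of 2.43 (2.19 to 2.69). These levels were not the highest of the series. In the PD1+CTLA4 library, without anti-CD40, Cxcl9 reached 884 CPM and Gbp2b 213 CPM, the Triplet lay at 259 and 53.4 CPM, and PBS at 19.9 and 9.76 CPM. Within PD1+CD40, Gbp2b stood at 248 CPM in neutrophil-like cells and Iigp1 at 171 CPM in Treg-like cells, each over 5-fold above the macrophages. The part of RNA from other cells in the macrophage levels was not tested.

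**Figure D1:**
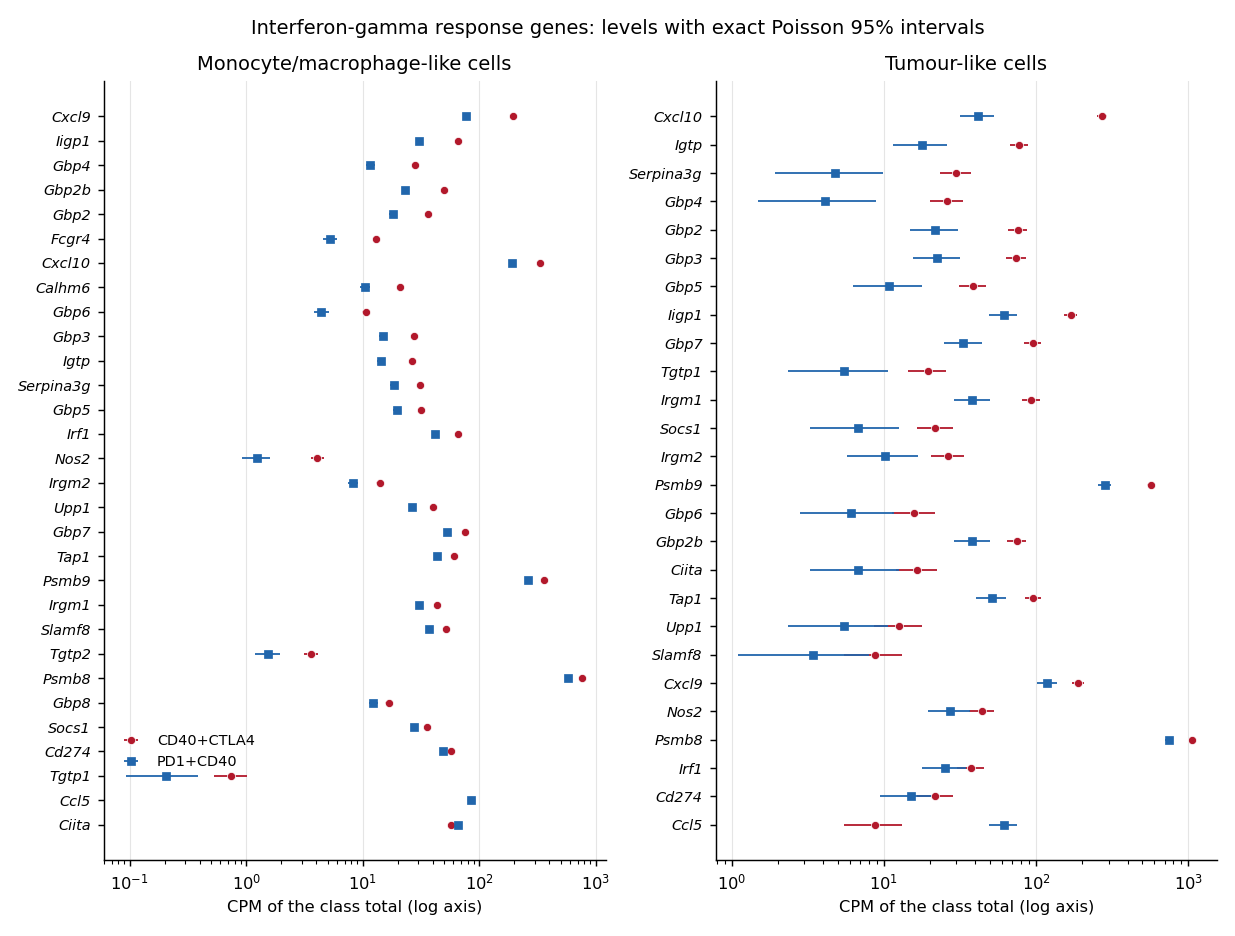
Levels of measured interferon-gamma response genes in monocyte/macrophage-like cells (left) and tumour-like cells (right), in CPM on a log axis, with exact Poisson 95% intervals; red circles are CD40+CTLA4, blue squares PD1+CD40, and genes are ordered by their log2 ratio. Red lies to the right of blue for the genes drawn, except Ccl5 and Ciita on the left and Ccl5 on the right.

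Among the signalling genes of the interferon-gamma pathway, the receptor chains and kinases differed less than Irf1, a transcription factor that interferon-gamma induces. Irf1 stood at 65.6 against 42.2 CPM, a ratio of 1.56 (1.47 to 1.65) that on CPM + 5 was just under the fold limit. The receptor chains Ifngr1 and Ifngr2 had ratios of 0.865 (0.832 to 0.900) and 1.11 (1.07 to 1.15), and the kinases Jak1 and Jak2 had ratios of 1.02 (0.976 to 1.06) and 1.06 (1.00 to 1.13). These chain genes were picked after their values had been seen. Of 21 measured type I interferon response genes, 2 were past the fold higher and 20 lay above 0, with a median of 0.31. Isg15, a ubiquitin-like antiviral modifier, stood at 187 and 119 CPM, and Zbp1, a nucleic acid sensor, at 98.1 and 61.8 CPM. The calls of both were lost under several of the alternatives tried. Isg15 was far higher in neutrophil-like cells, at 1798 and 1573 CPM.

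Antigen presentation divided by class of molecule. All 14 measured MHC class I presentation genes lay above 0 in these macrophages, with a median of 0.42, though only H2-Q7 was past the fold. The heavy chain H2-K1 stood at 943 CPM (935 to 951) against 654 CPM (647 to 662), a ratio of 1.44 (1.42 to 1.46). MHC class II went the other way by a small amount: 9 of 11 genes lay below 0, none was past the fold, and the median was -0.14, or 0.03 with equal cells per cluster. H2-Aa stood at 2717 against 3007 CPM, a ratio of 0.903 (0.897 to 0.910), and Ciita, the master regulator of class II, at 57.6 against 66.4 CPM.

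Genes downstream of CD40 itself, the antibody target shared by both groups, differed little. Of 20 measured CD40 and NF-kB target genes none was past the fold, 18 lay above 0, and the median was 0.12. Traf1, an adaptor that CD40 signalling induces, had a ratio of 1.36 (1.28 to 1.45), and Nfkbia, the NF-kB inhibitor, 1.19 (1.16 to 1.22). Intervals of both B7 genes, the ligands of CD28 and CTLA-4, included 1: Cd86 stood at 53.4 and 54.4 CPM, a ratio of 0.982 (0.930 to 1.04), and Cd80 had a ratio of 1.03 (0.938 to 1.13). Cd274, which encodes PD-L1, stood at 57.2 and 49.3 CPM, a ratio of 1.16 (1.10 to 1.23). Of 11 measured inflammatory cytokine genes, including the interleukin-12 family, none was past the fold.

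Osteoclast genes encode the enzymes and pumps with which bone-resorbing macrophages dissolve matrix, and several were far above the libraries without anti-CD40. Ctsk, cathepsin K, stood at 2812 CPM (2798 to 2826) in CD40+CTLA4 and 1575 CPM (1563 to 1587) in PD1+CD40, a ratio of 1.79 (1.77 to 1.80). Acp5, tartrate-resistant acid phosphatase, stood at 1701 and 877 CPM, a ratio of 1.94 (1.92 to 1.96), and the matrix metalloproteinase Mmp9 at 739 and 449 CPM, a ratio of 1.65 (1.62 to 1.67). Ctsk was at 2456 CPM in the Triplet, 60.2 in PD1+CTLA4 and 6.04 in PBS, so both members of the pair sat with the other anti-CD40 library. Atp6v0d2, a subunit of the proton pump, had a ratio of 1.87 (1.81 to 1.94). Csf1r, the growth factor receptor these cells share with other macrophages, stood at 294.9 and 292.5 CPM, a ratio of 1.01 (0.985 to 1.03). Genes outside the list with the highest ratios included Jdp2, an AP-1 family factor known from osteoclast formation, at 126 against 54.0 CPM, Bdh2, a dehydrogenase, at 74.5 against 31.7 CPM, and Slc9b2, a sodium-proton exchanger of osteoclasts, at 132 against 58.8 CPM.

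**Figure D2:**
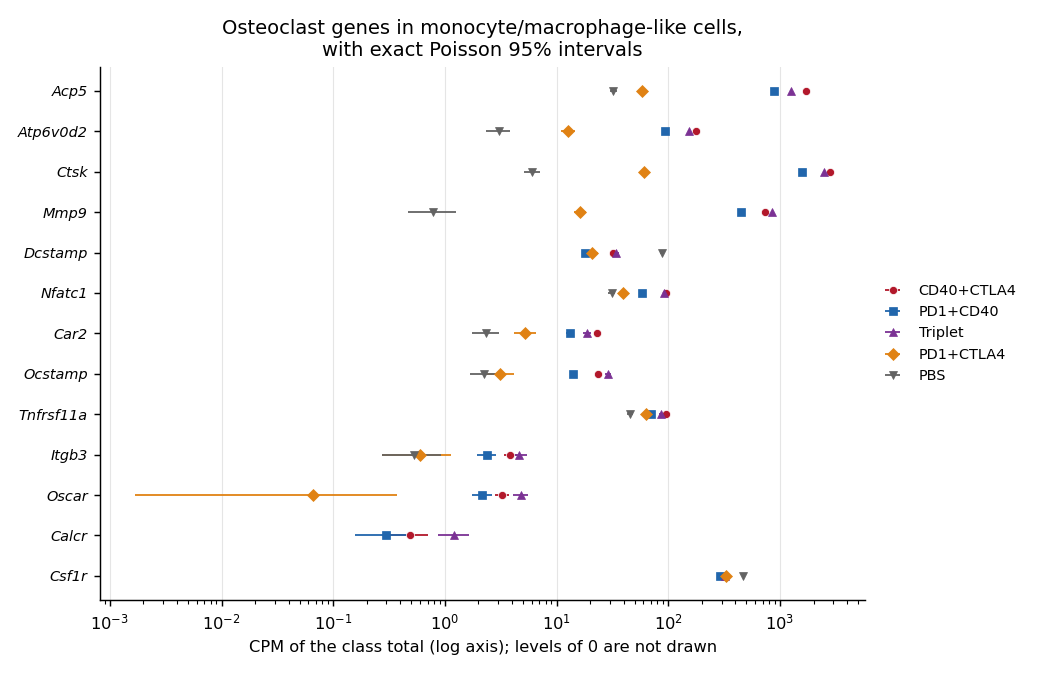
Levels of the 13 measured osteoclast genes in monocyte/macrophage-like cells of the 5 libraries, in CPM on a log axis, with exact Poisson 95% intervals; each colour and symbol is a library, and levels of 0 are not drawn. Ctsk, Acp5, Mmp9 and Atp6v0d2 lie higher in the 3 anti-CD40 libraries than in PD1+CTLA4 and PBS, and higher in CD40+CTLA4 than in PD1+CD40.

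The 2 gene groups had different medians inside clusters, but the clusters compared do not treat them alike. Clusters led by osteoclast genes were among those compared, whereas p9, led by Cxcl9 and Iigp1, was not. No conclusion is therefore drawn from the contrast. Of 11 macrophage clusters with at least 50 cells on each side, 10 had an interferon-gamma median above 0, from 0.33 to 1.35. The exception was p13, led by Plac8 and Ly6c2, genes of fresh monocytes, where the median was -0.24, 6 members were past the fold lower, and Cxcl9 stood at 210 against 467 CPM. In p10, led by Arg1 and the hypoxia gene Hilpda, Cxcl9 stood at 56.9 against 7.78 CPM, a ratio of 7.30 (4.51 to 12.5). The osteoclast genes, in contrast, were level where they were most abundant, in clusters that they themselves lead. Grouping cells by these genes limits how far their levels can differ there, so no conclusion is drawn from it. In p5, led by Acp5, Ctsk and Mmp9, Ctsk stood at 18478 against 19775 CPM and the list median was -0.10; in p20, led by Mmp9 and Ctsk, it stood at 13347 against 13430 CPM and the median was -0.06. In 6 clusters with lower levels the list median ran from 0.33 to 0.73, and in p0 Ctsk stood at 72.1 against 19.5 CPM. Cluster p5 held 436 cells of CD40+CTLA4 and 189 of PD1+CD40, and p9, led by Cxcl9, Ly6a and Iigp1 and too small in 1 library to compare, held 183 and 43. With the same number of cells drawn from each library in every cluster, the osteoclast median was 0.03 with 0 members past the fold, and the interferon-gamma median was 0.42 with 10 of 31 past it. Such a draw rests on the same clusters, so it also evens out p9 and those led by osteoclast genes. When the 2 libraries were clustered without the others, the osteoclast median was 0.14, again with 0 past the fold, and Mmp9 lay below 0. Under 1 or both of these settings Acp5, Ctsk, Atp6v0d2, Jdp2, Bdh2 and Slc9b2 also lost their calls, whereas Cxcl9, Iigp1 and Gbp2b kept theirs.

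**Figure D3:**
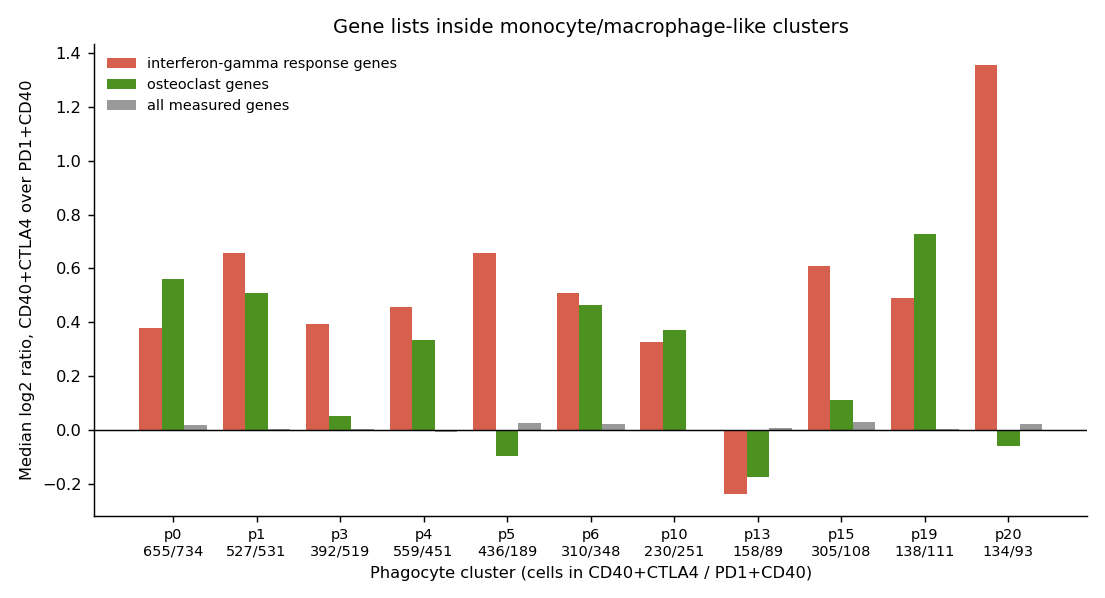
Median log2 ratio of CD40+CTLA4 over PD1+CD40 inside each of 11 monocyte/macrophage-like clusters for interferon-gamma response genes (red), osteoclast genes (green) and all measured genes (grey); cell numbers stand under each cluster. Red bars are above 0 in 10 clusters, while green bars are within 0.11 of 0 in p5, p20 and p15, where osteoclast genes are most abundant. These clusters have list members among their own leading genes. Cluster p9, led by Cxcl9 and Iigp1, had too few cells in PD1+CD40 to be drawn.

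Promoters of leading genes of both groups are shown because the macrophage results turn on these groups. Both are fixed lists of gene names, and no motif was used to choose their members. The sequences are RefSeq's for GRCm38.p6, 250 bases before to 50 after the start, 5′ to 3′ on the gene's strand. Capitals mark matches to the core of the interferon-stimulated response element, searched on both strands as GAAANNGAA or TTCNNTTTC. The second motif searched, the gamma-activated site TTCNNNGAA, which reads the same on both strands, has no match in these 5; the motifs can overlap. Acp5 and Ctsk are the members with an entry among the 4 osteoclast genes of highest ratio, and the 3 interferon genes were picked after their values had been seen.
Acp5, chr9:22135697-22135996, minus strand: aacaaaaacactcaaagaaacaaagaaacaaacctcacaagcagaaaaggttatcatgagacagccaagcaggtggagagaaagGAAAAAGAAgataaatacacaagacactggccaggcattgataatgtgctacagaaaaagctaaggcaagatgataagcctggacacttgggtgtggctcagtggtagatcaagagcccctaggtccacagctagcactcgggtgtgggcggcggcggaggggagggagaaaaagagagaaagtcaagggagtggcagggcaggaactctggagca
Ctsk, chr3:95498960-95499259, plus strand: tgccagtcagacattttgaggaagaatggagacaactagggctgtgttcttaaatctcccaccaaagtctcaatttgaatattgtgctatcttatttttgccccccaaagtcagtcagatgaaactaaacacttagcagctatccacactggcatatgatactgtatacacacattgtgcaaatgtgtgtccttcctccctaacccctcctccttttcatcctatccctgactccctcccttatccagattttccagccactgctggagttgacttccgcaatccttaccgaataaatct
Cxcl9, chr5:92328030-92328329, minus strand: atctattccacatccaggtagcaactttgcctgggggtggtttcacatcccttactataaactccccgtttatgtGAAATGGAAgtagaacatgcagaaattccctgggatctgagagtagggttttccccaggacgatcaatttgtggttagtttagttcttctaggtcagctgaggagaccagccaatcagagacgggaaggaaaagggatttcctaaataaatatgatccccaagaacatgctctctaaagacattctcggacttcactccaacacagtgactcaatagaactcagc
Gbp2b, chr3:142594597-142594896, plus strand: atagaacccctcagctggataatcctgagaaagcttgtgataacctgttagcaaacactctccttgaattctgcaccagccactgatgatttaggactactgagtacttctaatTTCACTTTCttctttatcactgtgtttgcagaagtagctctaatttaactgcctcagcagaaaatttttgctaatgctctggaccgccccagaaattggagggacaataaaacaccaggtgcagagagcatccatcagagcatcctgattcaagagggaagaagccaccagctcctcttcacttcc
Gbp2, chr3:142620413-142620712, plus strand: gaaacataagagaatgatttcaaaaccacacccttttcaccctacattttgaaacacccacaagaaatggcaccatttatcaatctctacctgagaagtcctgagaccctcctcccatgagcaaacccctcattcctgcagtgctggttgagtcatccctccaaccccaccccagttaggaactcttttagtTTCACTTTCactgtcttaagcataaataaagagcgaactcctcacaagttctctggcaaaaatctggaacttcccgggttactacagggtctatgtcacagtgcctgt
In Cxcl9, Gbp2b and Gbp2 the match begins at -175, -136 and -58 from the start; Acp5, of which 1 of 3 listed starts is shown, has a match at -166 and Ctsk none. Over all 32851 promoters of this length, 8.56% hold the response element core, 8.30% the gamma-activated site and 15.8% either. Of 23 measured interferon-gamma response genes with an entry, 20 hold either motif in at least 1 of their promoters, 27 in all. The core is in 17 of these genes and the gamma-activated site in 9. Of 5 osteoclast genes with an entry, with 8 promoters in all, 1 holds either motif. The percentages count single promoters and these numbers count genes, so they are not like for like. A match is a match of letters and no evidence of binding.

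Fewer genes were lower in the CD40+CTLA4 macrophages. Cx3cr1, the fractalkine receptor of patrolling monocytes and resident macrophages, stood at 103 CPM (100 to 106) against 178 CPM (174 to 182), a ratio of 0.578 (0.559 to 0.598). Cdh1, E-cadherin, whose call ended when the pair was clustered alone, stood at 31.4 against 56.6 CPM, and Ccdc162 at 69.4 against 120 CPM. Resident macrophage genes leaned the same way without passing the fold: 14 of 17 lay below 0, with a median of -0.16, and Mrc1, the mannose receptor, had a ratio of 0.761 (0.742 to 0.780). Monocyte genes split, with a median of -0.17 that turned to 0.16 after cells were thinned to 500 UMIs: Ccr2 was at 266 against 367 CPM, whereas Plac8 was past the fold higher at 167 against 110 CPM, a call that 9 of 15 alternatives removed. Arg1, arginase, stood at 49.4 against 28.4 CPM and Acod1, the itaconate enzyme, at 31.6 against 13.1 CPM. The heat shock genes Hspa1a and Hspa1b were at 36.7 against 15.4 and 25.7 against 10.3 CPM.

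Tumour cells had the highest interferon-gamma median of the 7 classes. The tumour-like class had 79 cells in CD40+CTLA4 and 60 in PD1+CD40, with medians of 30808 and 23214.5 UMIs. Of 10396 measured genes, 325 were past the fold higher, or 3.13%, and 150 lower, or 1.44%, with a median log2 ratio of 0.04. Of 27 measured interferon-gamma response genes, 22 were past the fold higher and 1 lower, with a median of 1.05. Igtp, an immunity-related GTPase, stood at 77.6 CPM (67.1 to 89.2) against 17.7 CPM (11.6 to 25.9), a ratio of 4.39 (2.90 to 6.88). Treg-like cells of PD1+CD40 held Igtp at 91.2 CPM, over 5-fold above the tumour-like cells. The part of RNA from other cells in the tumour levels was not tested. Gbp3 stood at 74.0 against 22.5 CPM, a ratio of 3.30 (2.27 to 4.93), and Iigp1 at 169 against 61.2 CPM. The cell with the most Gbp3 held 11.2% and 12.1% of its UMIs; in PD1+CD40, 1 cell held 23.1% of the Igtp UMIs and 1 held 24.4% of the Iigp1 UMIs. Cxcl10, a chemokine for T cells, had a ratio of 6.52 (5.02 to 8.62), but 1 cell held 32.2% of its UMIs. The gene past the fold lower, Ccl5, rested on 1 PD1+CD40 cell with 95.6% of the UMIs.

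Presentation genes of the tumour cells followed. The immunoproteasome subunit Psmb9 stood at 568 CPM (539 to 598) against 284 CPM (257 to 312), a ratio of 2.00 (1.79 to 2.24), and the peptide transporter Tap1 at 95.8 against 51.0 CPM. All 14 measured MHC class I genes lay above 0, 3 of them past the fold higher, with a median of 0.47. Of 10 MHC class II genes, 8 were past the fold higher and 1 lower, with a median of 0.81; the invariant chain gene Cd74 stood at 1084 against 605 CPM. Class II RNA is abundant in macrophages, and macrophage markers moved with these genes: the 15 phagocyte markers summed to 2826 CPM in CD40+CTLA4 and 1984 CPM in PD1+CD40, with none at 0. Without the 15 cells on each side that carried the most macrophage RNA, 22 of 25 interferon-gamma genes were past the fold higher with a median of 1.31, and the class II median was 1.09. With unnamed clusters counted in, the interferon-gamma median was 0.79, but the class II median turned to -0.31. Removing the richest cells leaves in any macrophage RNA spread over the others, and its part in the class II values was not tested.

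Other tumour groups differed by varying amounts. Of 19 type I interferon response genes 8 were past the fold higher, with a median of 0.45; Zbp1 stood at 124 against 39.5 CPM and Irf7 at 89.9 against 44.9 CPM. Of 8 complement genes, which macrophages also express, 4 were past the fold higher, with a median of 0.64; it was 0.64 again without the cells richest in macrophage RNA, but turned to -0.32 with unnamed clusters counted in. Of 20 cell cycle genes 2 were, with a median of 0.34, and of 21 hypoxia and glycolysis genes none was in either direction, with a median of -0.06. Ly6a, the surface protein Sca-1, stood at 768 against 371 CPM, a ratio of 2.07 (1.88 to 2.28). Genes past the fold lower included Rdm1, a DNA repair gene, at 39.6 against 83.0 CPM and Gpx3, a secreted glutathione peroxidase, at 55.4 against 110 CPM. Tumour Cd274 stood at 21.8 and 14.97 CPM, with a ratio of 1.45 whose interval ran from 0.873 to 2.50. The receptor gene Ifngr1 had a ratio of 0.876 (0.729 to 1.05) and Ifngr2 1.04 (0.821 to 1.31).

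**Figure D4:**
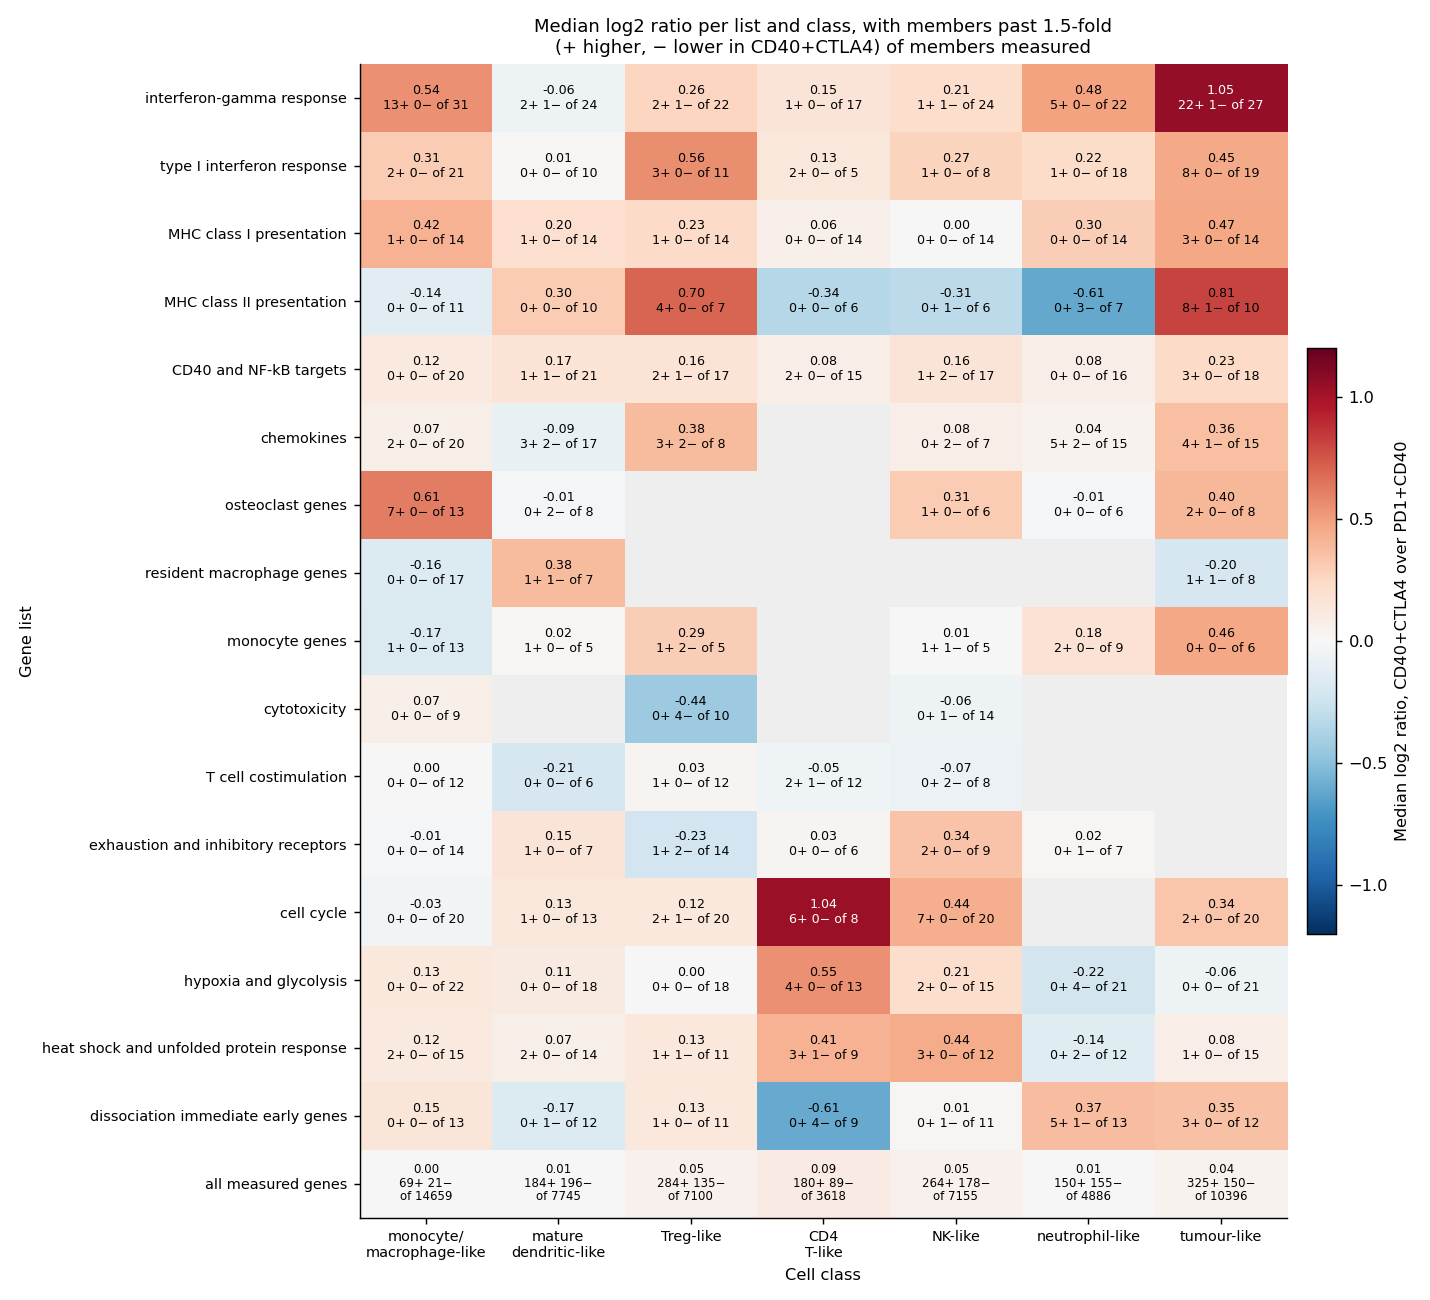
Median log2 ratio of CD40+CTLA4 over PD1+CD40 for 16 gene lists and all measured genes (bottom row) in the 7 classes, with the members past the fold higher (+) and lower (−) of those measured; grey cells have fewer than 5 measured members. The interferon-gamma row is highest in tumour-like (1.05), macrophage (0.54) and neutrophil-like cells (0.48), and -0.06 in mature dendritic-like cells.

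Ifng itself, the ligand gene, was looked at in the cells that make it, after these values had been seen. In all T cells it stood at 71.0 CPM (58.9 to 84.9) in CD40+CTLA4 and 34.1 CPM (25.9 to 44.1) in PD1+CD40, a ratio of 2.08 (1.51 to 2.90) from 121 and 58 UMIs. CD8 T-like cells held 64 of the 121 UMIs, in 17 cells, and 1 of these cells had 21; in PD1+CD40 they held 12 UMIs in 5 cells. Treg-like cells held 15 and 33 UMIs, and T cells of unnamed clusters 33 and 8. NK-like cells had Ifng at 95.3 and 108 CPM, a ratio of 0.884 (0.639 to 1.24). The T cell difference rested on few cells, and the NK interval included 1.

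The make-up of the T cells differed. Of 410 T cells in CD40+CTLA4, 195 were Treg-like, or 47.6% (42.6 to 52.5), against 285 of 457, or 62.4% (57.7 to 66.8), in PD1+CD40, a ratio of 0.763 (0.674 to 0.863). The CD8 T-like class held 47 cells, or 11.5% (8.55 to 14.95), against 19, or 4.16% (2.52 to 6.42), and the ratio of shares was 2.76 (1.65 to 4.62). CD4 T-like cells made up 28.0% and 23.9%. The Treg-like share was lower and the CD8 T-like share higher in CD40+CTLA4 beyond counting error, on few cells. Among non-T immune cells, NK-like cells were 4.502% (3.96 to 5.09) against 2.60% (2.17 to 3.10) and neutrophil-like cells 6.61% (5.96 to 7.31) against 9.88% (9.04 to 10.8). With at least 1000 UMIs and 500 genes required, the neutrophil ratio of 0.670 moved to 0.981. These cells are shallow, with medians of 1105 and 993 UMIs. Monocyte/macrophage-like cells were 76.3% and 74.9%. Sorted T and non-T immune cells were mixed 2:1, but named T cells numbered 410 and 457 against 5398 and 4728 non-T immune cells. Shares are therefore given only within marker-named T cells and within marker-named non-T immune cells, which stand in for the sorted fractions.

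**Figure D5:**
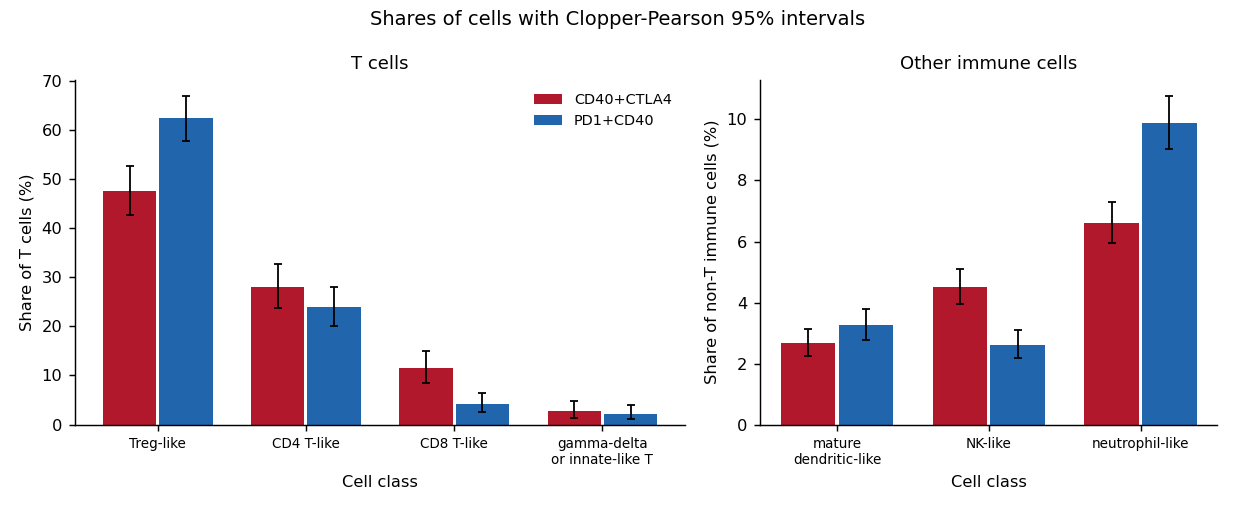
Shares of T cell classes among T cells (left) and of other classes among non-T immune cells (right), in percent, with Clopper-Pearson 95% intervals; red is CD40+CTLA4, blue PD1+CD40. Treg-like and neutrophil-like bars are lower, CD8 T-like and NK-like bars higher, in CD40+CTLA4.

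Regulatory T cells are the suppressive T cells that depend on Foxp3 and carry most of the Ctla4. In CD40+CTLA4 they had more RNA of Ly6a and of type I interferon response genes. They had less Lag3 and Tigit RNA, on low counts and on calls that equal cells per cluster removed. There were 195 and 285 Treg-like cells, with medians of 2164 and 2751 UMIs. Of 7100 measured genes 284, or 4%, were past the fold higher and 135, or 1.9%, lower, with a median of 0.05; with trimmed-mean (TMM) scaling the split was 177 higher and 201 lower, so a lean to either side cannot be read. Ctla4 per Treg-like total was at 581 CPM (520 to 646) against 712 CPM (661 to 766), a ratio of 0.815 (0.714 to 0.929) that is not past the fold. Pdcd1 had a ratio of 0.842 (0.633 to 1.11), Icos 0.956 (0.812 to 1.12) and Cd28 1.07 (0.775 to 1.47). Cluster T2, led by Itgb8 and Tnfrsf4, held 84 and 178 of the cells and T0, led by Samhd1, Ikzf2, Foxp3 and Il1rl1, 76 and 69, so the mix differed.

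Ly6a stood at 1468 CPM (1371 to 1570) against 837 CPM (782 to 896) in Treg-like cells, a ratio of 1.75 (1.59 to 1.93). All 11 measured type I interferon response genes lay above 0, 3 past the fold higher, with a median of 0.56; Usp18, a brake on that pathway, stood at 38.1 against 15.9 CPM. Of 22 interferon-gamma response genes 2 were past the fold higher and 1 lower, with a median of 0.26. Some genes of restraint were lower: Lag3, an inhibitory receptor, stood at 12.1 against 43.6 CPM, Tigit, another, at 32.9 against 60.4 CPM, and the suppressive cytokine Il10 at 6.93 against 22.8 CPM, from 4 and 23 UMIs. With equal cells per cluster Lag3 and Tigit were no longer past the fold. Of 14 measured exhaustion and inhibitory receptor genes 1 was past the fold higher and 2 lower, with a median of -0.23. Penk, a proenkephalin gene of tissue regulatory T cells, stood at 90.1 against 197 CPM. Genes past the fold higher included Tnfaip3, an NF-kB inhibitor, at 315 against 173 CPM, Klf2, a factor of circulating T cells, at 390 against 226 CPM, and Il1rl1, the interleukin-33 receptor, at 88.4 against 48.6 CPM. Of 18 regulatory T cell genes 1 was past the fold higher and 3 lower, with a median of -0.05.

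Markers of other cells moved with some of these lists. Of 7 measured MHC class II genes 4 were past the fold higher in Treg-like cells, with a median of 0.70; Cd74 stood at 345 against 114 CPM, and 1 cell held 31.2% of the H2-Eb1 UMIs. The 15 phagocyte markers summed to 1153 CPM against 840 CPM, with only Csf1r at 0, on the CD40+CTLA4 side. Of 10 measured cytotoxicity genes 4 were past the fold lower, with a median of -0.44, and the 10 NK markers summed to 45.1 against 285 CPM, with 5 at 0 on each side. Gzma stood at 6.93 against 264 CPM, and 1 PD1+CD40 cell held 84.6% of its UMIs. Without the 8 and 11 cells richest in macrophage RNA the class II median was 0.70 again, with 4 genes past the fold. The part of macrophage RNA in the class II values and of NK-type RNA in the cytotoxicity values was not tested.

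Conventional helper cells, the Foxp3-negative CD4 T cells that provide CD40 ligand, were few. There were 115 and 109 CD4 T-like cells with medians of 1784 and 1753 UMIs. The class was named from marker scores and not from a lack of Foxp3. Its cluster T12, with 20 and 18 cells, scored 0.33 for CD4 T markers and 0.32 for Treg markers. Of 3618 measured genes 180, or 4.98%, were past the fold higher and 89, or 2.46%, lower, with a median of 0.09; with TMM scaling the split was 141 higher and 120 lower. Cd28, the costimulatory receptor that CTLA-4 outcompetes, stood at 215 CPM (166 to 275) against 93.3 CPM (58.4 to 141), a ratio of 2.31 (1.40 to 3.93). Pdcd1 stood at 144 against 212 CPM, a ratio of 0.682 (0.443 to 1.05), Ctla4 had a ratio of 0.942 (0.595 to 1.501) and Cd40lg, the natural ligand of CD40, 0.896 (0.491 to 1.64). Only Cd28 of these differed beyond counting error, and its call was lost when the pair was clustered alone.

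Satb1, a chromatin organiser of resting T cells, stood at 104 CPM (70.8 to 148) against 318 CPM (250 to 399), a ratio of 0.328 (0.208 to 0.504). Lef1 and Bach2, factors of naive and memory cells, were at 161 against 259 and 131 against 254 CPM, while Cxcr6 and Cd44, genes of tissue-resident and activated cells, were at 188 against 93.3 and 178 against 102 CPM. Satb1, Lef1, Igfbp4 and Bach2 lead cluster T3, which held 16 cells of CD40+CTLA4 and 29 of PD1+CD40. The naive and memory list as a whole had 3 of 12 members past the fold lower and a median of -0.03, and the calls of Lef1, Bach2 and Cd44 were lost at the finer clustering. Of 13 hypoxia and glycolysis genes 4 were past the fold higher, with a median of 0.55, which turned to -0.10 with none past the fold when the pair was clustered alone; Pkm, pyruvate kinase, was at 346 against 187 CPM. Of 9 immediate early genes, which tissue dissociation can switch on, 4 were past the fold lower, with a median of -0.61 that turned to 0.10 after thinning; Jun stood at 70.6 against 157 CPM. The phagocyte markers summed to 1008 against 1467 CPM. Cell cycle genes had 6 of 8 members past the fold higher and a median of 1.04, but 1 cell held 42.2% and 73.3% of the Top2a UMIs, and with each cell weighted equally Top2a had a log2 ratio of 0.00.

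NK cells, lymphocytes that kill without a clonal receptor, carried more RNA of proliferation in CD40+CTLA4. There were 243 and 123 NK-like cells with medians of 4856 and 3609 UMIs. Of 7155 measured genes 264, or 3.69%, were past the fold higher and 178, or 2.49%, lower, with a median of 0.05. Of 20 cell cycle genes 7 were past the fold higher, none lower, and 18 lay above 0, with a median of 0.44. The histone gene Hist1h1b stood at 401 CPM (367 to 437) against 198 CPM (161 to 240), a ratio of 2.03 (1.64 to 2.54). Pclaf, which binds the replication clamp, stood at 245 against 112 CPM, and Orc6, of the origin recognition complex, at 75.1 against 27.4 CPM. The killing genes did not follow: of 14 measured cytotoxicity genes none was past the fold higher and 1, Ccl4, was lower, with a median of -0.06.

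Receptor genes of the NK-like cells split. Klrg1, a receptor of mature NK cells, stood at 136 CPM (116 to 157) against 86.2 CPM (62.6 to 116) and Tbx21, the T-bet factor gene, at 103 against 60.7 CPM, whereas Klrb1c, which encodes NK1.1, stood at 95.3 against 153 CPM. Each of these 3 calls was lost under at least 2 of the alternatives tried. Of 15 NK receptor genes 2 were past the fold higher and 2 lower, with a median of -0.06. Cd44 and Il7r, genes of memory and of less mature cells, were at 41.0 against 84.2 and 10.1 against 31.3 CPM. Neutrophil genes moved with the groups: the 10 neutrophil markers summed to 128 CPM against 443 CPM, with Mmp8 at 0 on both sides and Cxcr2 in CD40+CTLA4, and 1 cell held 94.1% and 73.4% of the S100a9 UMIs.

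Neutrophils, the short-lived granulocytes, differed in some interferon and immediate early genes, and less steadily in hypoxia genes. There were 357 and 467 neutrophil-like cells. Of 4886 measured genes 150, or 3.07%, were past the fold higher and 155, or 3.17%, lower, with a median of 0.01. The split was 298 higher and 157 lower at Leiden resolution 2, and 268 and 156 with the pair clustered alone. Of 22 interferon-gamma response genes 5 were past the fold higher, none lower, with a median of 0.48. Cxcl10 stood at 794 CPM (718 to 876) against 490 CPM (434 to 551), a ratio of 1.62 (1.39 to 1.90), and Irf1 at 415 against 261 CPM; both calls were lost at 1000 UMIs and 500 genes. All 14 MHC class I genes lay above 0, none past the fold, with a median of 0.30. The 15 phagocyte markers summed to 16408.5 against 14673.8 CPM in this class, with none at 0. Cells rich in macrophage genes were not removed from it under any alternative, and the part of macrophage RNA in these values was not tested.

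Fos, an AP-1 subunit that stress and dissociation induce within minutes, stood at 1678 CPM (1566 to 1795) against 624 CPM (560 to 692) in neutrophil-like cells, a ratio of 2.69 (2.37 to 3.06). Of 13 immediate early genes 5 were past the fold higher and 1, Atf3, lower, with a median of 0.37. Hk2, the hexokinase that hypoxia raises, stood at 144 against 370 CPM, a ratio of 0.390 (0.294 to 0.512), and Egln3, an oxygen sensor enzyme, at 126 against 211 CPM. Of 21 hypoxia and glycolysis genes these belonged to 4 past the fold lower, with a median of -0.22, which turned to 0.08 at 1000 UMIs and 500 genes and to 0.02 after thinning. The cytokine genes Il1a and Il15 were at 66.1 against 148 and 70.2 against 146 CPM. Cd274, higher here than in any other class, stood at 890 against 1057 CPM, a ratio of 0.842 (0.743 to 0.954). Of 7 MHC class II genes 3 were past the fold lower, with a median of -0.61, which turned positive under 4 alternatives.

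Mature dendritic cells, which carry antigen to lymph nodes and are the main cells licensed through CD40, differed in few list genes. There were 144 and 154 mature dendritic-like cells with medians of 9448 and 8360.5 UMIs. Of 7745 measured genes 184, or 2.38%, were past the fold higher and 196, or 2.53%, lower, with a median of 0.01. Il12b, the shared subunit of interleukins 12 and 23, stood at 130 CPM (112 to 150) against 83.5 CPM (69.2 to 99.9), a ratio of 1.56 (1.23 to 1.98) whose call ended without the cells richest in macrophage RNA, whereas Tnf stood at 14.8 against 38.6 CPM. The ratio of Cd86 was 1.15 (1.02 to 1.31), of Cd80 0.941 (0.793 to 1.12) and of Cd274 1.00 (0.899 to 1.12). Of 17 dendritic cell maturation genes 1 was past the fold higher, with a median of 0.14 that turned to -0.14 with the pair clustered alone, and of 21 CD40 and NF-kB target genes 1 was higher and 1 lower, with a median of 0.17. Of 24 interferon-gamma response genes 2 were higher and 1 lower, with a median of -0.06; with the pair clustered alone it was 0.39, with 5 higher and 1 lower, so the direction in these cells depended on the clustering. Hspa1a stood at 64.3 against 13.3 CPM, a ratio of 4.83 (2.92 to 8.38), and Epsti1, an interferon-induced gene, at 812 against 489 CPM, a difference that turned to -0.31 on the log2 scale when the pair was clustered alone.

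Cdk8, a kinase of the Mediator complex, was lower in CD40+CTLA4 in each of the 7 classes. It stood at 118 against 192 CPM in macrophages, 345 against 660 in Treg-like, 396 against 839 in CD4 T-like, 329 against 713 in NK-like, 303 against 624 in neutrophil-like, 148 against 231 in mature dendritic-like and 125 against 201 in tumour-like cells. In PBS, whose file carries a Cell Ranger 4 header, Cdk8 reached 3042 CPM in macrophages and 4425 CPM in NK-like cells. The part of the authors' processing in this gene was not tested.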

How the data were processed

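Single-cell 5′ gene expression (10x Chromium) was deposited as UMI counts per gene and barcode, 1 library per group; T cell receptor libraries were not analysed here. Per the file headers, the authors made the counts of the compared libraries with Cell Ranger 7.1.0 and those of PBS with Cell Ranger 4; the submitters' processing notes name the build mm9. The deposited counts are raw, whole numbers. The CD40+CTLA4 file lists 1751343 barcodes, from 0 UMIs upward, and the PD1+CD40 file 17501, from 500 UMIs; the same filters, given in the report, were applied to both.

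The 5 libraries were clustered together with Scanpy 1.11.5 (2000 variable genes, 30 principal components, 15 neighbours, Leiden resolution 1, leidenalg 0.10.2), then again within T cells and within mononuclear phagocytes (clusters T0 onward and p0 onward). A cluster was named "X-like" from at least 3 markers, with further limits on its marker score, its depth and competing marker sets. The thresholds for naming were set after seeing the data, and the clusters left unnamed held 61.3% and 65.3% of barcodes. Unnamed clusters within phagocytes left out a further 482 and 418 cells, and those within T cells 42 and 34. Of these phagocytes 299 and 345 were in p8, led by Ccl17, Mfge8 and Epcam. Scrublet called 1 and 0 doublets and so had not worked; no doublets were removed in the values reported, and an alternative removed the 2149 and 2281 barcodes of highest score. Counts per gene were summed by class and library, and intervals are exact (Poisson, Clopper-Pearson, conditional binomial) at 95%. PCR and cell sampling add error that they leave out. No count test was run, since each group is 1 library. TMM factors came from edgeR 4.0.16. The calculation was tested on simulated counts.

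Members and gene lists were chosen with earlier results of these data known. Named genes were, per class, the 6 highest and 6 lowest log2 ratios among genes whose higher library held 50 CPM and 30 UMIs or more, with an interval outside 1.5-fold, UMIs in at least 10 cells and no cell above 20% of UMIs, leaving out mitochondrial, ribosomal, receptor-segment, haemoglobin, unnamed-model and sex-linked genes and genes above 5-fold higher in another lineage; up to 4 members per list; and the antibody targets. From these the text gives a selection, and a few further genes, such as receptor and kinase genes of the interferon pathway and Csf1r, were chosen after their values were seen. List members were not held to the limit on genes higher in another lineage. 14 alternatives were planned and 1, the removal of cells with macrophage genes, was added after seeing the data. That removal was not applied to monocyte/macrophage-like and neutrophil-like cells. 1 member of the interferon-gamma list is counted in the list values but is not reported here by name.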

Additional observations from a re-analysis of the deposited data

Results flagged for a closer look

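Opposite signs of 1 gene list in different classes were picked out; the differences between classes were not tested. MHC class II presentation genes had a median log2 ratio (CD40+CTLA4 over PD1+CD40) of 0.70 in Treg-like cells and 0.81 in tumour-like cells but -0.61 in neutrophil-like cells. The neutrophil value changed sign under 4 alternatives and the tumour value when unnamed clusters were counted in. Immediate early genes, which tissue dissociation can induce, had a median of 0.37 in neutrophil-like cells and 0.35 in tumour-like cells but -0.61 in CD4 T-like cells. The CD4 value turned to 0.10 when cells were thinned to 500 UMIs.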

How the results depend on the processing

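No paired analysis was possible because each group is 1 library, and no replicate could be left out. The cause of each change below was not tested, apart from the stricter fold limit and the filters, which change counts by construction. Of 48 share ratios recomputed, 41 stayed within their interval. The Treg-like ratio was 0.624 with the pair clustered alone; the macrophage ratio was 1.05 at Leiden resolution 2 and 1.08 with the pair clustered alone; the neutrophil ratio was 0.981 at 1000 UMIs, 0.772 at a mitochondrial limit of 20% and 0.827 with the pair clustered alone; and the mature dendritic ratio of 0.819 became 2.18 with the pair clustered alone.

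Of 103 recomputed counts of genes past the fold, 79 were within 1.5 times the reported count. The macrophage count of 90 became 266 and 26 with pseudocounts of 1 and 20 CPM, 10 at a fold limit of 2, 340 after thinning (193 higher, 147 lower), 47 with the pair clustered alone (25 higher, 22 lower) and 38 with equal cells per cluster (25 higher, 13 lower). The mature dendritic count of 380 became 80 with 20 CPM, 73 at a fold limit of 2 and 49 after thinning; the Treg-like count of 419 became 273, 127 and 89; and the tumour count of 475 became 101, 77 and 26. The CD4 T-like count of 269 became 431 with no low-count filter, 158 at a fold limit of 2, 39 after thinning and 76 with the pair clustered alone. The NK-like count of 442 became 167 at a fold limit of 2 and 65 after thinning, and the neutrophil count of 305 became 126 and 171, and 489 with no low-count filter.

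The macrophage interferon-gamma median of 0.54 was 0.69 and 0.39 with 1 and 20 CPM, 0.39 with the pair clustered alone and 0.42 with equal cells per cluster. The osteoclast median of 0.61 was 0.37 with 20 CPM, 0.50 with cells weighted equally, 0.14 with the pair clustered alone and 0.03 with equal cells per cluster. The tumour interferon-gamma median of 1.05 was 1.27 and 0.71 with 1 and 20 CPM, 0.90 with no filter, 0.74 after thinning (2 genes measured), 0.79 with unnamed clusters counted, 1.17 with equal cells per cluster and 1.31 without cells rich in macrophage genes.

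Signs of called genes and of lists changed as follows. With the pair clustered alone, the median of regulatory T cell genes was 0.03, of CD4 hypoxia and glycolysis genes -0.10 and of neutrophil MHC class II genes 0.35, and Mmp9 in macrophages was -0.10 and Epsti1 in mature dendritic-like cells -0.31. With equal cells per cluster, regulatory T cell genes were at 0.06, CD4 naive genes at 0.04 and Mmp9 at -0.09. After thinning, CD4 naive genes were at 0.19, CD4 immediate early genes at 0.10, neutrophil hypoxia genes at 0.02, Bach2 in CD4 T-like cells at 0.03 and Klra7 in NK-like cells at -0.17. At 1000 UMIs, regulatory T cell genes were at 0.00, neutrophil MHC class II genes at 0.12 and neutrophil hypoxia genes at 0.08. Neutrophil MHC class II genes were also at 0.12 at a mitochondrial limit of 20% and 0.41 at Leiden resolution 2, where CD4 naive genes were at 0.00. With unnamed clusters counted, tumour MHC class II genes were at -0.31, complement genes at -0.32, H2-Eb1 at -0.37, H2-Ab1 at -0.30 and Cd74 at -0.04. Small medians also changed sign: macrophage MHC class II genes (-0.14) were at 0.03 with equal cells per cluster, macrophage monocyte genes (-0.17) and NK-like cytotoxicity genes (-0.06) both at 0.16 after thinning, and, with the pair clustered alone, mature dendritic interferon-gamma genes (-0.06) at 0.39 and maturation genes (0.14) at -0.14. Reported medians from -0.08 to 0.07 changed sign or reached 0 under at least 1 alternative for macrophage cytokine, chemokine, complement and cell cycle genes, Treg-like and CD4 T-like costimulation genes, and tumour hypoxia and matrix genes.

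CD4 T-like cells gave no value at 1000 UMIs, and tumour-like and CD8 T-like cells none with the pair clustered alone. Depth limits the small classes: with 60 tumour-like or 109 CD4 T-like cells, a low gene rests on few UMIs and often on 1 cell.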

Other observations

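Several gene groups not described above differed little or in few members between the macrophages of the pair. Lipid-associated macrophage genes leaned higher in CD40+CTLA4, with 14 of 17 above 0, none past the fold and a median log2 ratio of 0.18. Cell cycle genes had a median of -0.03 over 20 members, and hypoxia and glycolysis genes a median of 0.13 over 22, with none past the fold in either list. Of 20 chemokine genes 2 were past the fold higher, with a median of 0.07. Of 10 complement genes none was past it, with a median of -0.08.

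In NK-like cells, 3 of 12 measured heat shock genes were past the fold higher in CD40+CTLA4, with a median of 0.44, and of 10 measured naive and memory genes 2 were past it lower, with a median of -0.22. Neutrophil granule and identity genes in neutrophil-like cells had a median of 0.00 over 15 members, with 1 past the fold higher. Epithelial, mesenchymal and matrix genes in tumour-like cells had 1 of 15 past the fold in each direction and a median of 0.01.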
